A study of Mus musculus with 8 samples.

Results

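Megakaryocytes are the marrow cells that shed platelets, and 36 genes whose products build, arm or trigger platelets were followed here through the top of the mouse blood hierarchy. The list was chosen with earlier results of these data known, so shares of members beside those of all genes are descriptions, not tests. Its genes were taken by name. Each was read from the probe set annotated with that symbol alone, or from the one with the highest mean where there were several. Of the 36, 32 had such a probe set and all 32 entered the tests, out of 17576 genes tested in all. Gp1ba, Gp1bb, Ptgs1 and Serpine2 had no probe set annotated with their symbol alone, so their signal was not analysed here. Angpt1 was the one member with more than 1 probe set.

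The 8 microarrays held RNA of cells sorted from bone marrow of C57/Bl6 mice, labelled as 8 weeks of age. Stem cells of the long-term class (LT-HSC) gave 2 arrays, numbered replicates 1 and 3, and were sorted as CD48-, CD150+ and CD34-. The short-term stem cells (ST-HSC, 3 arrays) carried CD34 and otherwise the same gate, and the multipotent progenitors (MPP, 3 arrays) were CD48+, CD150- and CD34+. Every population was Lin-, Sca1+ and Kit+. On treatment the labels disagree, since the sample descriptions give none while a protocol common to all samples tells of DMSO and serial transplantation. Nothing in them says that arrays came from separate animals, and p-values therefore measure only how far these samples spread, and that spread may be technical. Values are log2 RMA signals per array, a scale on which 1 unit is a factor of 2, and they serve to compare arrays within a gene, not genes with each other. Differences are between log2 means, with the standard error (SE) of limma, a linear model fitted over all genes, and p-values are adjusted over all tested genes, with an adjusted p under 0.05 called. Replicate 1 of LT-HSC and of ST-HSC resembled the remaining arrays least, correlating with them at a median of 0.956 and 0.968, against 0.976 to 0.985 elsewhere.

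The transcripts of the sort markers separated the populations only in part. Slamf1, which encodes CD150, averaged 5.06 in MPP, against 7.77 in LT-HSC and 7.34 in ST-HSC, and was called lower in MPP in both comparisons. Cd34 read 8.50 and 10.20 in LT-HSC, 9.55, 10.15 and 10.07 in ST-HSC and at least 10.85 on each MPP array, so LT-HSC replicate 3, labelled CD34-, was above every ST-HSC array. Cd48 read 5.92 and 6.63 in LT-HSC, 7.49, 6.51 and 6.57 in ST-HSC and 7.84, 6.65 and 6.96 in MPP. Of the arrays labelled CD48-, only ST-HSC replicate 1 lay above any MPP array, namely replicates 2 and 3, labelled CD48+. No Cd34 or Cd48 difference was called (limma adjusted p from 0.194 to 0.999), and the gates were set on surface protein, not on transcripts.

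As background, platelets stick to a damaged vessel wall when the glycoprotein Ib-IX-V complex grips von Willebrand factor and the integrin alphaIIb-beta3 grips fibrinogen, while ADP, thrombin and thromboxane receptors spread the activation. Alpha granules store the adhesive proteins and chemokines that platelets release. Several of these genes are known to be active already in part of the mouse stem cell pool, where Vwf marks stem cells biased towards platelets and Itga2b, which encodes CD41, appears on early progenitors.

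Vwf was highest in LT-HSC and fell in MPP. Gp5 and Itga2b rose in ST-HSC against LT-HSC and fell in MPP against ST-HSC, and Pf4, also highest in ST-HSC, fell in MPP. Cavin2 fell in MPP against ST-HSC, by the largest difference of any member. These 5 were the members called by limma's F test over the 3 populations, 5 of 32, where 0.905% of all tested genes were called. Their adjusted p from that test were 0.00995 for Gp5, 0.00942 for Itga2b, 0.0123 for Vwf, 0.0288 for Pf4 and 0.00995 for Cavin2. None of the 5 had its highest mean in MPP.

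**Figure D1:**
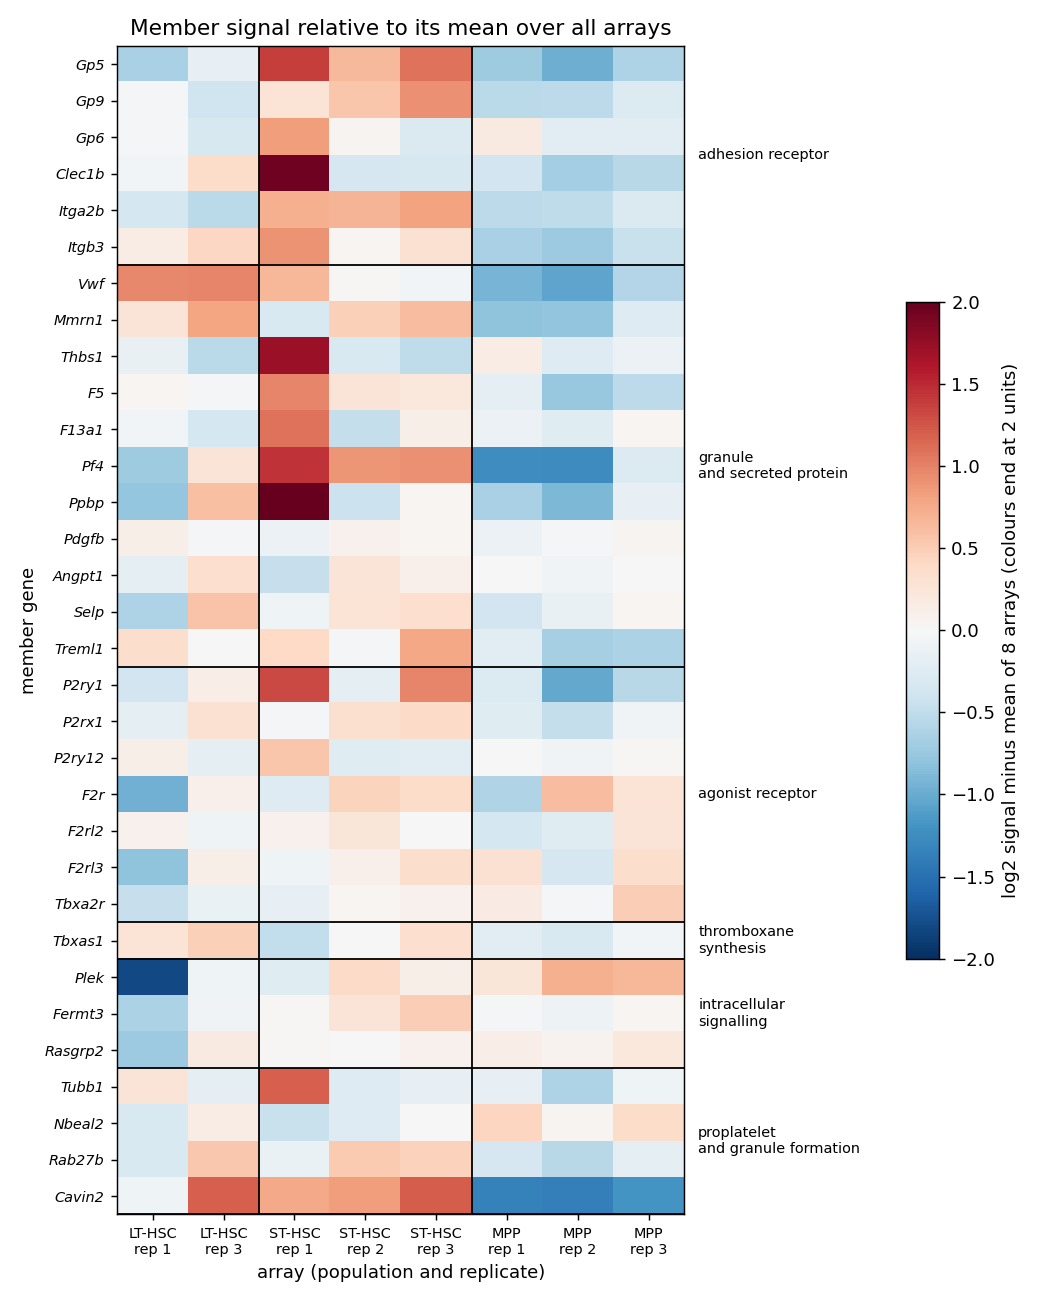
Signal of the 32 measured members on each array, as the log2 signal minus that gene's mean over the 8 arrays (red above, blue below, colours ending 2 units to either side), with genes in rows by role and arrays in columns by population. Vwf is red in both LT-HSC arrays, Gp5, Itga2b and Pf4 in the 3 ST-HSC arrays, and Cavin2 is blue in the 3 MPP arrays, while Clec1b, Thbs1, Ppbp and Tubb1 are dark red in ST-HSC replicate 1 alone.

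Megakaryocyte genes are known to be read by GATA and ETS family factors, and the stretch just upstream of the called genes is shown for that reason. RefSeq promoter sequences on GRCm38.p6 matched 30 of the 36 members, among them 4 of the 5 called ones. The 250 bases before each annotated start are printed 5′ to 3′ on the gene's own strand. Capitals mark the GATA letters AGATAA or TGATAA and the ETS letters AGGAAG or CGGAAG, searched on both strands. No marked stretch overlapped another in these 4 sequences. The regions are chr16:30310782-30311031 (minus strand) for Gp5, chr11:102469884-102470133 (minus strand) for Itga2b, chr5:90772185-90772434 (plus strand) for Pf4 and chr1:51288876-51289125 (plus strand) for Cavin2.
Gp5: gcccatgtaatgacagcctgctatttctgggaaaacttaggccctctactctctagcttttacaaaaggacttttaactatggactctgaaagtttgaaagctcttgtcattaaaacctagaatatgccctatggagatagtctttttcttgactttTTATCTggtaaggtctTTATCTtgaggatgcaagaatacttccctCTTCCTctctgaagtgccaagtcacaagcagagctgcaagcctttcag
Itga2b: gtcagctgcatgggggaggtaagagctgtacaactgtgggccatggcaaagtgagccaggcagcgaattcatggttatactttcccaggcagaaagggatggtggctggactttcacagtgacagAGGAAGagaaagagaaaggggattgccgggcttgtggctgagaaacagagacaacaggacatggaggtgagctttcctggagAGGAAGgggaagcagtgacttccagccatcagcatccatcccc
Pf4: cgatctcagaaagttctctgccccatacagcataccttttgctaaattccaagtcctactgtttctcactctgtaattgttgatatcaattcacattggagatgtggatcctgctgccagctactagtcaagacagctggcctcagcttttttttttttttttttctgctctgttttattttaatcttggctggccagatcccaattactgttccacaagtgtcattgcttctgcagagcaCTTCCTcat
Cavin2: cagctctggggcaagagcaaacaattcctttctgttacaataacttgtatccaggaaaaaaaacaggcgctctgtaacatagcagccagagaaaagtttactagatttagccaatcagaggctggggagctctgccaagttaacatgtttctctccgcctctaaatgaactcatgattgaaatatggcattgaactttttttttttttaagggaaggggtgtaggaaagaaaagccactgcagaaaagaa
Gp5 carried 2 GATA matches, both read as TTATCT on its own strand, and 1 ETS match. Itga2b carried 2 ETS matches and Pf4 carried 1, which began 9 bases before the start. Cavin2 carried neither set of letters in this window. Over the members with a sequence, 8 of 30 held the GATA letters (26.7%) and 18 of 30 the ETS letters (60.0%). These 30 include Gp1ba, Gp1bb, Ptgs1 and Serpine2, whose signal was not measured. Each of those held the ETS letters, so they raise the ETS share of the members. Only Gp1ba among them also held the GATA letters, so they do not raise the GATA share. Among all 27025 promoters of the table the GATA and ETS shares were 16.9% and 39.0%. Both sets occurred together in 4 of 30 members (13.3%), Gp1ba among them, against 5.56% of all promoters. A match describes letters and says nothing on whether a factor binds there.

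Among the adhesion receptors, Gp5, Gp9 and Itga2b had every ST-HSC array above every other array. Gp5 encodes glycoprotein V of the von Willebrand factor receptor. It read 5.48 and 5.95 in LT-HSC, 7.51, 6.76 and 7.20 in ST-HSC and 5.41, 5.14 and 5.50 in MPP. The ST-HSC arrays were well above the rest, and the LT-HSC and MPP ranges overlapped. Gp5 was 2.72-fold higher in ST-HSC than in LT-HSC, a log2 difference of 1.44 (SE 0.24, limma adjusted p = 0.0194). It was 3.50-fold lower in MPP than in ST-HSC, a difference of -1.81 (SE 0.22, limma adjusted p = 0.0141). Its MPP minus LT-HSC difference of -0.36 was not called (limma adjusted p = 0.58).

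Itga2b encodes the alphaIIb chain of the fibrinogen receptor. Its signals were 6.48 and 6.30 in LT-HSC, 7.55, 7.52 and 7.64 in ST-HSC and 6.32, 6.33 and 6.55 in MPP. The ST-HSC arrays were tightly grouped and clear of both other populations, whose values interleaved. Itga2b was 2.27-fold higher in ST-HSC than in LT-HSC (difference 1.18, SE 0.17, limma adjusted p = 0.00814) and 2.25-fold lower in MPP than in ST-HSC (difference -1.17, SE 0.15, limma adjusted p = 0.0141). Between MPP and LT-HSC it differed by 0.01, with a 95% interval of -0.36 to 0.38. The partner Itgb3, the beta3 chain, had another profile: 6.49 and 6.76 in LT-HSC, 7.24, 6.39 and 6.65 in ST-HSC and 5.69, 5.62 and 5.90 in MPP. All MPP arrays of Itgb3 lay below all others. Its differences were -1.02 for MPP minus ST-HSC and -0.89 for MPP minus LT-HSC, neither called (limma adjusted p = 0.106 and 0.244). ST-HSC and LT-HSC differed by 0.14 (limma adjusted p = 0.871).

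Gp9, the glycoprotein IX subunit that shares a complex with Gp5, read 8.67 and 8.28 in LT-HSC, 8.96, 9.24 and 9.60 in ST-HSC and 8.15, 8.16 and 8.41 in MPP. Its ST-HSC arrays again stood above all others, but the drop of the MPP mean below them, -1.03, missed the threshold (limma adjusted p = 0.0795, SE 0.20). Between ST-HSC and LT-HSC Gp9 differed by 0.79 (limma adjusted p = 0.173). The remaining adhesion receptors were Gp6, the collagen receptor glycoprotein VI, and Clec1b, the podoplanin receptor CLEC-2. Clec1b was 4.31 and 4.73 in LT-HSC, 6.32, 4.04 and 4.04 in ST-HSC and 3.98, 3.69 and 3.82 in MPP, so that a single ST-HSC array set its mean. Gp6 read 4.95 and 4.66 in LT-HSC, 5.81, 5.03 and 4.69 in ST-HSC and 5.15, 4.76 and 4.77 in MPP, also with its highest value in ST-HSC replicate 1. Of the 6 measured adhesion receptors, 6 had their highest mean in ST-HSC, where 30.0% of all tested genes did. Without ST-HSC replicate 1, 3 of 6 did, as Gp6 was then highest in MPP and Clec1b and Itgb3 in LT-HSC. In ST-HSC against LT-HSC 2 of 6 rose (0.848% of all genes), and in MPP against ST-HSC 2 of 6 fell (0.125% of all genes).

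**Figure D2:**
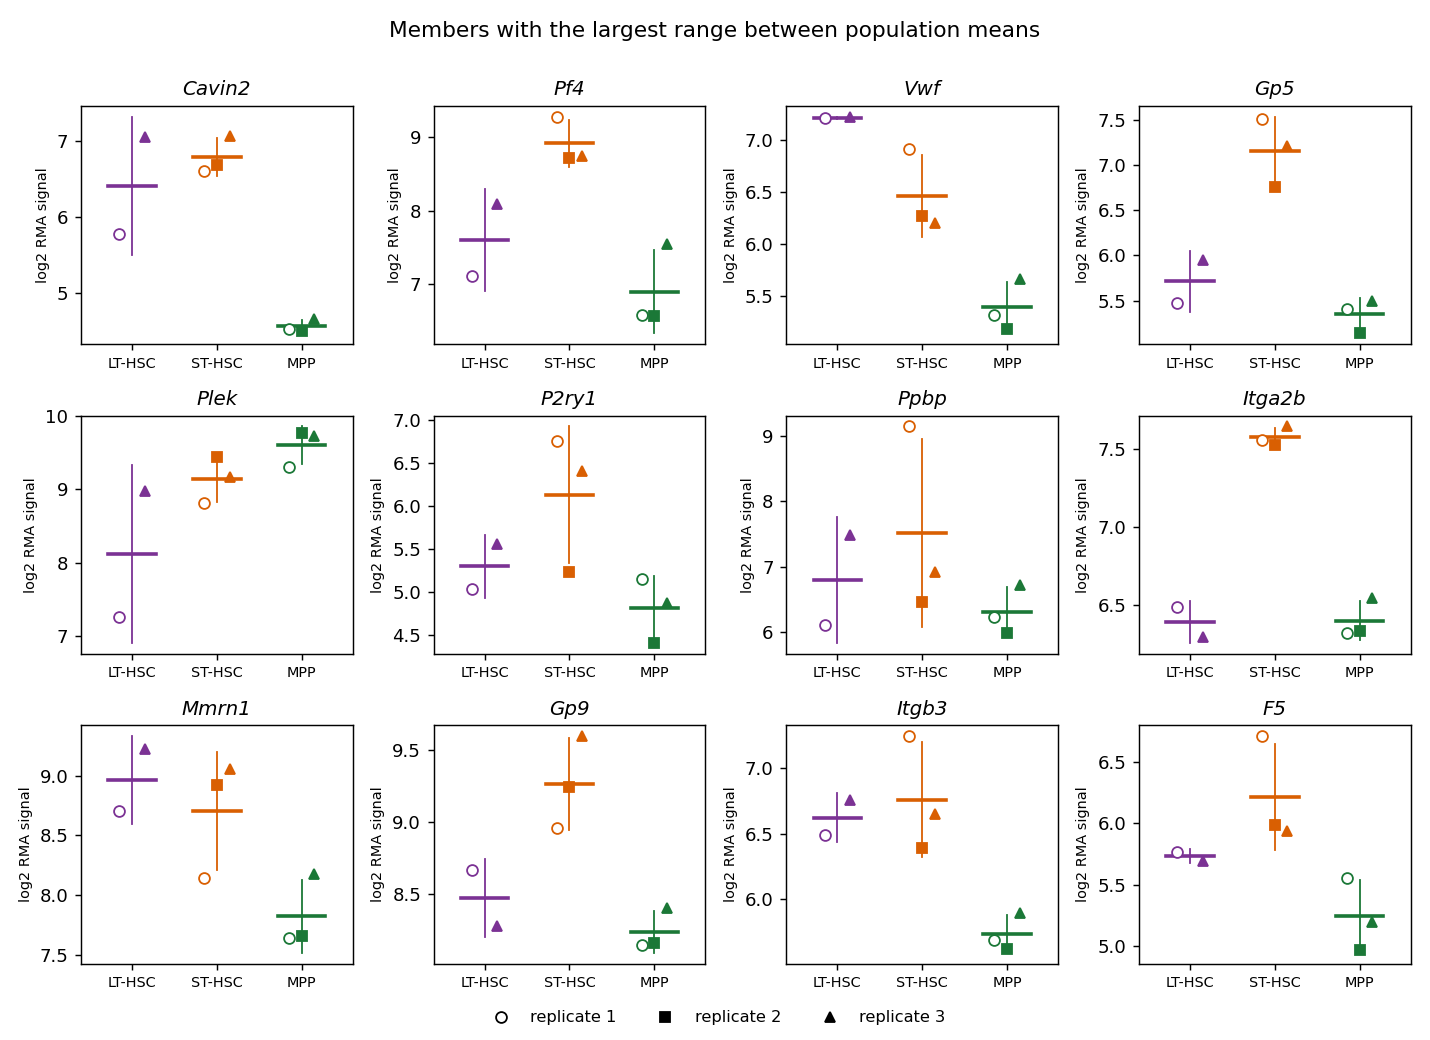
Log2 RMA signal (vertical axes) of the 12 members with the largest range between population means, in LT-HSC, ST-HSC and MPP (horizontal axes). Points are arrays with the symbol of their replicate number, horizontal bars are means and vertical lines reach 1 SD to each side. Gp5, Itga2b, Pf4, Gp9 and F5 are highest in every ST-HSC array, whereas Vwf is highest in LT-HSC and Ppbp is raised by ST-HSC replicate 1 alone.

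The stored and secreted proteins were split in their order. Vwf, the adhesive multimer that tethers platelets, read 7.20 and 7.22 in LT-HSC, 6.91, 6.27 and 6.20 in ST-HSC and 5.33, 5.19 and 5.67 in MPP. No array of one population overlapped another, and Vwf was the only member with every LT-HSC array above every other array, 1 of 32 against 4.73% of all tested genes. It was 3.52-fold lower in MPP than in LT-HSC (difference -1.82, SE 0.24, limma adjusted p = 0.0147). The steps on either side of ST-HSC were not called, with -0.75 between ST-HSC and LT-HSC (limma adjusted p = 0.248, SE 0.24) and -1.07 between MPP and ST-HSC (limma adjusted p = 0.0893, SE 0.21).

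Mmrn1, the multimerin that binds factor V in alpha granules, had the same order of means as Vwf, with 8.70 and 9.22 in LT-HSC, 8.14, 8.92 and 9.05 in ST-HSC and 7.64, 7.65 and 8.18 in MPP. Here the LT-HSC and ST-HSC arrays overlapped, and Mmrn1 averaged 7.82 ± 0.31 in MPP (SD, n = 3) and 8.96 ± 0.37 in LT-HSC (SD, n = 2). Its MPP minus LT-HSC difference was -1.14 (SE 0.29, limma adjusted p = 0.209). Without LT-HSC replicate 3, or without ST-HSC replicate 1, the highest Mmrn1 mean moved to ST-HSC. F5, coagulation factor V, was 5.77 and 5.69 in LT-HSC, 6.71, 5.99 and 5.94 in ST-HSC and 5.56, 4.97 and 5.20 in MPP, 3 ranges in descending order from ST-HSC without overlap. Its MPP minus ST-HSC difference of -0.97 was not called (limma adjusted p = 0.15).

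The chemokine genes Pf4 (platelet factor 4) and Ppbp (pro-platelet basic protein) also had their highest means in ST-HSC. Pf4 read 7.12 and 8.09 in LT-HSC, 9.27, 8.71 and 8.73 in ST-HSC and 6.59, 6.57 and 7.55 in MPP. All 3 ST-HSC arrays exceeded all others, and Pf4 fell 4.01-fold in MPP against ST-HSC (difference -2.00, SE 0.31, limma adjusted p = 0.034). Between ST-HSC and LT-HSC Pf4 differed by 1.31, which was not called (limma adjusted p = 0.158, SE 0.35). Ppbp read 6.12 and 7.48 in LT-HSC, 9.14, 6.46 and 6.92 in ST-HSC and 6.23, 5.99 and 6.72 in MPP. Apart from 9.14 in ST-HSC replicate 1, its populations overlapped, and without that array its highest mean was in LT-HSC. No Ppbp difference was called (limma adjusted p = 0.72 to 0.79).

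Treml1, a receptor-like protein of the alpha granule membrane, had all MPP arrays (6.18, 5.73 and 5.76) below all ST-HSC (6.79, 6.36 and 7.16) and all LT-HSC arrays (6.74 and 6.40). Its differences were -0.88 for MPP minus ST-HSC and -0.68 for MPP minus LT-HSC, neither of them called (limma adjusted p = 0.203 and 0.401). Selp, the adhesion molecule P-selectin, had means of 6.04, 6.24 and 5.90 in LT-HSC, ST-HSC and MPP. The LT-HSC arrays of Selp, at 5.45 and 6.63, spanned all others. Thbs1 (thrombospondin 1) and F13a1 (the A subunit of the clot-stabilising factor XIII) were each highest in ST-HSC replicate 1, at 6.39 and 6.25, and between 4.13 and 5.27 elsewhere. Pdgfb, a platelet growth factor, ranged from 4.60 to 4.84 over the 8 arrays. Angpt1, the ligand of the receptor TIE2, had means of 10.42, 10.31 and 10.33 in LT-HSC, ST-HSC and MPP, and its other probe set read between 5.73 and 6.42. Of the 11 measured genes of this role, 4 had their highest mean in LT-HSC, 7 in ST-HSC and 0 in MPP.

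Among the receptors for platelet agonists, P2ry1 had the largest range between population means. P2ry1, the ADP receptor that starts shape change, read 5.04 and 5.55 in LT-HSC, 6.75, 5.23 and 6.40 in ST-HSC and 5.15, 4.40 and 4.87 in MPP. ST-HSC replicate 2 lay among the LT-HSC arrays, while all MPP arrays lay below all ST-HSC arrays. The MPP minus ST-HSC difference was -1.32 (SE 0.35, limma adjusted p = 0.221). It was called with the replicate number as a block (limma adjusted p = 0.00851), a pairing that the labels do not state. P2rx1, the ATP-gated channel, differed by -0.49 in the same comparison (limma adjusted p = 0.578), and P2ry12, the ADP receptor that clopidogrel-type drugs block, by -0.05 (limma adjusted p = 0.999), with its highest value of 5.80 in ST-HSC replicate 1. The protease-activated receptors F2r, F2rl2 and F2rl3, which sense thrombin, had MPP minus ST-HSC differences of -0.09, -0.22 and -0.02 (limma adjusted p = 0.999 for each). For the thromboxane receptor Tbxa2r the highest mean was in MPP, with a difference of 0.51 between MPP and LT-HSC (limma adjusted p = 0.426). Over the 8 arrays P2rx1 ranged from 6.24 to 7.10, F2r from 8.37 to 9.94, F2rl2 from 7.13 to 7.74, F2rl3 from 7.26 to 8.42 and Tbxa2r from 5.83 to 6.78. By limma without the block 0 of these 7 receptors were called in any comparison. At an unadjusted p under 0.05 were 0, 1 and 2 in ST-HSC minus LT-HSC, MPP minus LT-HSC and MPP minus ST-HSC. The share of all genes at that threshold is not given here.

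Tbxas1, thromboxane synthase, was 9.12 and 9.33 in LT-HSC, 8.35, 8.84 and 9.18 in ST-HSC and 8.64, 8.54 and 8.80 in MPP. Its highest mean was in LT-HSC, as for Vwf, yet its MPP minus LT-HSC difference of -0.56 was not called (limma adjusted p = 0.443). Of the 3 signalling genes, Plek and Rasgrp2 had their highest mean in MPP. Plek, the protein kinase C substrate pleckstrin, read 7.26 and 8.98 in LT-HSC, 8.81, 9.45 and 9.17 in ST-HSC and 9.31, 9.77 and 9.73 in MPP. Its MPP arrays exceeded both LT-HSC arrays, which were themselves far apart, and the difference of 1.48 was not called (SE 0.40, limma adjusted p = 0.237). Fermt3 (kindlin-3, an integrin activator) and Rasgrp2 (the exchange factor CalDAG-GEFI) had their lowest array in LT-HSC replicate 1, as did Plek. For Fermt3 and Rasgrp2 the differences between ST-HSC and LT-HSC were 0.61 and 0.31 (limma adjusted p = 0.311 and 0.657).

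Cavin2, a caveola coat protein abundant in platelets, gave the largest range between population means of all 32 members. It read 5.77 and 7.06 in LT-HSC, 6.61, 6.69 and 7.07 in ST-HSC and 4.51, 4.49 and 4.66 in MPP. The MPP arrays were close together and far below all others, while the LT-HSC arrays enclosed most of the ST-HSC range. Cavin2 was 4.72-fold lower in MPP than in ST-HSC (difference -2.24, SE 0.28, limma adjusted p = 0.0141). Against LT-HSC it was not called (difference -1.86, limma adjusted p = 0.0657), with means of 4.55 ± 0.09 (SD, n = 3) in MPP and 6.42 ± 0.91 (SD, n = 2) in LT-HSC. With a single LT-HSC array the difference was -2.51 with replicate 3 and -1.22 with replicate 1. Both passed (limma adjusted p = 0.0102 and 0.0327), but such a fit takes the spread of LT-HSC from the other populations and leaves out that between its own 2 arrays. Between ST-HSC and LT-HSC the difference of 0.38 had no settled sign, at -0.27 without LT-HSC replicate 1 and 1.02 without LT-HSC replicate 3.

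The other genes of platelet formation differed less. Rab27b, a small GTPase of granule transport, averaged 6.04 in LT-HSC, 6.21 in ST-HSC and 5.57 in MPP, with all MPP arrays below all ST-HSC arrays (difference -0.64, limma adjusted p = 0.565). Nbeal2, which is needed to build alpha granules, was higher in all MPP arrays (7.85, 7.48 and 7.79) than in all ST-HSC arrays (6.97, 7.16 and 7.41), by 0.53 (limma adjusted p = 0.497). Tubb1, the beta-1 tubulin of the platelet rim, read 5.42 in ST-HSC replicate 1 and 3.62 to 4.49 elsewhere. Tubb1, Clec1b, Gp6, Thbs1 and Pdgfb were the 5 members whose mean over all arrays lay below the median of all probe sets, and no detection calls were used here.

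The 3 comparisons share arrays, so their counts are not independent. Counts at an unadjusted p under 0.05 stand without the share of all genes and show no excess. In ST-HSC against LT-HSC, 2 of 32 members rose, Gp5 and Itga2b, where 0.848% of all tested genes did. By limma 0 members fell (1 at an unadjusted p under 0.05), where 0.0853% of all genes did. The median member difference was 0.30, beside 0.02 over all tested genes, and 26 of 32 were positive. Other lists also had positive medians here, 0.18 for the ubiquitous control genes (9 of 10 positive), 0.24 for erythroid genes (8 of 9) and 0.20 for stroma and endothelium genes (9 of 12). The control genes averaged -0.37 relative to their means in LT-HSC replicate 1 and -0.10 to 0.15 on the other arrays, and that array had the narrowest interquartile range, 2.49 against 2.73 to 3.06. Their part in the member differences was not tested. Every ST-HSC array exceeded every LT-HSC array for 6 members, or for 13.8% of all genes. Without LT-HSC replicate 1 or without ST-HSC replicate 3 neither member was called (limma adjusted p = 0.217 and 0.0941 for Gp5, 0.058 and 0.0507 for Itga2b), and without MPP replicate 3 Gp5 was not (limma adjusted p = 0.0512). The differences were then 1.20, 1.42 and 1.44 for Gp5, and 1.28 and 1.15 for Itga2b. Without LT-HSC replicate 3, which leaves LT-HSC replicate 1 alone, 6 were called higher, Gp5, Itga2b, Pf4, Plek, Rasgrp2 and Cavin2, with 4.69% of all genes called in either direction.

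In MPP against LT-HSC, 1 of 32 members fell, Vwf, where 0.119% of all genes did. By limma 0 members rose (2 at an unadjusted p under 0.05), where 0.00569% of all genes did. The median was -0.19, beside 0.06 over all genes, and 20 of 32 were negative. Every MPP array lay below every LT-HSC array for 8 members, or for 10.5% of all genes. Vwf lost its call without LT-HSC replicate 1 (limma adjusted p = 0.123) and without MPP replicates 1, 2 and 3 (0.0844, 0.07 and 0.0525), at differences from -1.95 to -1.71. Without LT-HSC replicate 3, 4 members were called, Vwf and Cavin2 lower and Plek and Rasgrp2 higher, with 3.50% of all genes called. With each array centred on its median, Vwf was not called (limma adjusted p = 0.0636).

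Most member calls came from MPP against ST-HSC, where 4 of 32 members fell, Gp5, Itga2b, Pf4 and Cavin2, and 0.125% of all genes did. By limma 0 members rose (1 at an unadjusted p under 0.05), where 0.0683% of all genes did. The median was -0.43, beside 0.01 over all genes, and 27 of 32 were negative. The erythroid genes had a median of -0.50 (0 of 9 positive) and the stroma and endothelium genes one of -0.35 (3 of 12 positive). By limma 0 of them were called. At an unadjusted p under 0.05, 2 erythroid genes were lower, while 2 stroma and endothelium genes were higher and 2 were lower. The part of these lists in the member differences was not tested. Every MPP array lay below every ST-HSC array for 13 members, or for 6.43% of all genes. Leaving out MPP replicate 2 or 3 or ST-HSC replicate 3 left 0 called, with 1 of 17576 genes called in all. Leaving out ST-HSC replicate 2 kept Gp5 alone, and leaving out MPP replicate 1 kept Gp5 and Cavin2. Limma adjusted p of the lost calls lay between 0.0548 and 0.168. With each array centred on its median 0 were called, at limma adjusted p from 0.0615 for Gp5 to 0.125 for Pf4. Without ST-HSC replicate 1, Gp5, Itga2b and Cavin2 were called and Pf4 was not (limma adjusted p = 0.088). Over all alternatives the 4 differences kept their sign, from -2.01 to -1.58 for Gp5, -1.25 to -1.10 for Itga2b, -2.33 to -1.56 for Pf4 and -2.33 to -2.10 for Cavin2.

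**Figure D3:**
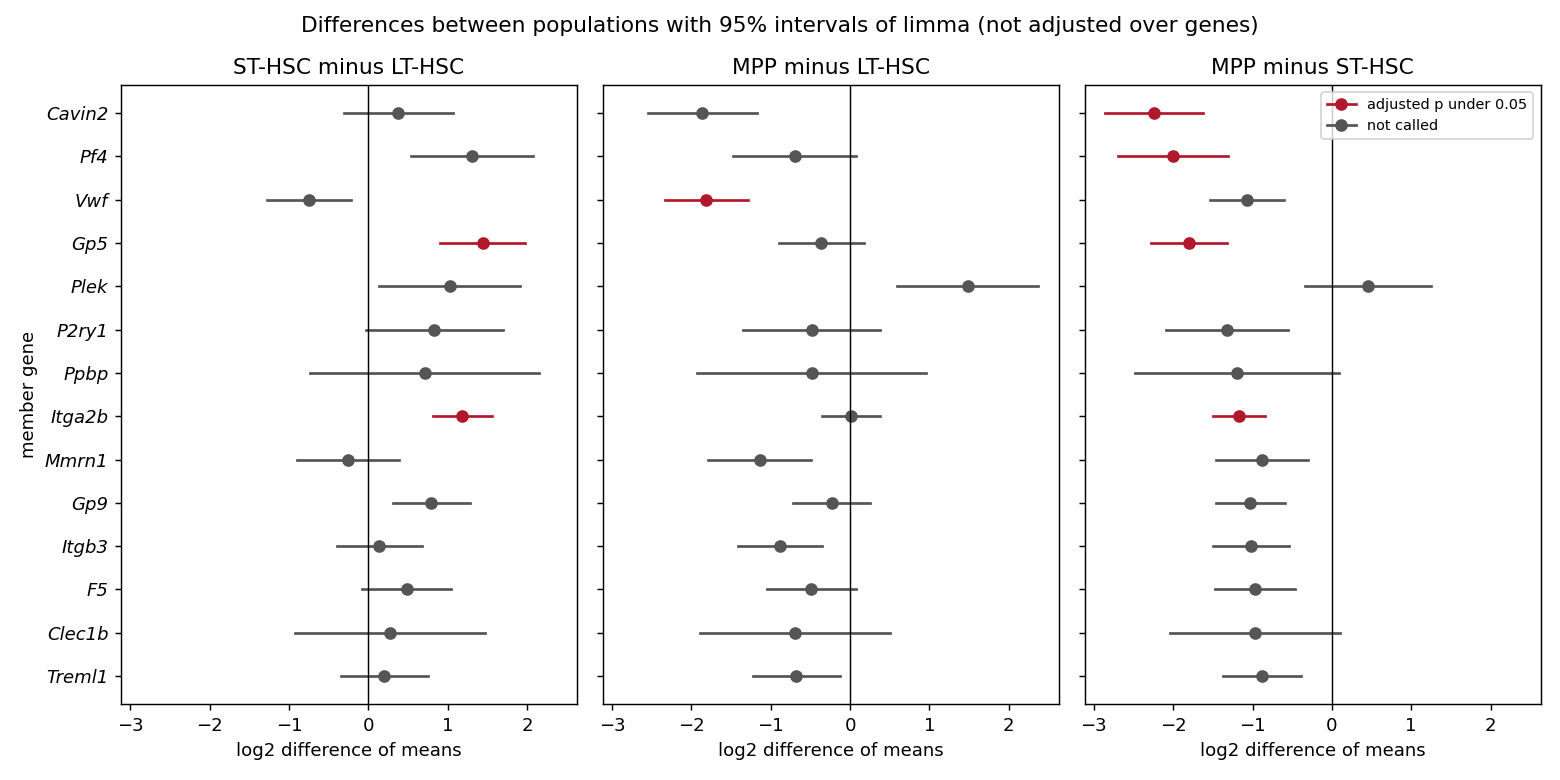
Log2 difference of population means (horizontal axes) for the 14 members with the largest range (vertical axis), 1 panel per comparison. Points are differences, lines are limma's 95% intervals for each gene on its own, and red marks an adjusted p under 0.05 over 17576 genes. Red points are Gp5 and Itga2b on the left, Vwf in the middle, and Cavin2, Pf4, Gp5 and Itga2b on the right.

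In an alternative fit, replicate numbers were taken to pair the ST-HSC and MPP arrays, and with the number as a block more members were called. The labels do not state this pairing. It was read from the same values that the blocked fit tests, so the added calls are conditional on it. Whether the numbers also pair the 2 LT-HSC arrays was not checked, and the blocked calls against LT-HSC rest on that. In MPP against ST-HSC 11 members fell, where 0.802% of all genes did. Gp5, Itga2b, Pf4 and Cavin2 were joined by Gp9 (limma adjusted p = 0.0175), Itgb3 (0.0185), Vwf (0.0153), Mmrn1 (0.0267), F5 (0.0139), Treml1 (0.0356) and P2ry1 (0.00851). In ST-HSC against LT-HSC 4 rose, where 2.26% of all genes did, the added ones being Pf4 (limma adjusted p = 0.0146) and P2ry1 (0.0218). In MPP against LT-HSC 3 fell, where 0.432% of all genes did, Vwf with Mmrn1 (limma adjusted p = 0.0277) and Cavin2 (0.00311). Plek was the 1 member that rose there (limma adjusted p = 0.0359), where 0.461% of all genes did.

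By their highest mean, 5 of 32 members belonged to LT-HSC (Vwf, Mmrn1, Tbxas1, Angpt1 and Pdgfb), 23 to ST-HSC and 4 to MPP (Plek, Rasgrp2, Tbxa2r and Nbeal2). Among all tested genes these shares were 34.8%, 30.0% and 35.2%. Every array of ST-HSC exceeded every other array for 5 members, Gp5, Gp9, Itga2b, F5 and Pf4, or for 3.56% of all genes. For MPP this held for 0 members, or for 3.70% of all genes. Conversely every MPP array lay below all other arrays for 6 members, Clec1b, Itgb3, Vwf, F5, Treml1 and Cavin2, or for 1.67% of all genes. The split rested in part on single arrays. Without LT-HSC replicate 1 and ST-HSC replicate 1 together, 12 members were highest in LT-HSC, 13 in ST-HSC and 7 in MPP. Without LT-HSC replicate 1 alone 9 were highest in LT-HSC, and without ST-HSC replicate 1 alone 8 were highest in MPP.

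Over 12 fits, the deposited values, quantile normalization, median centring, each array left out in turn and both named arrays left out together, 13 members kept the population of their highest mean and 19 did not. LT-HSC kept 2 of them, Vwf and Tbxas1, beside 12.1% of all genes. ST-HSC kept 8, Gp5, Gp9, Itga2b, F5, Pf4, Treml1, P2ry1 and Fermt3, beside 12.5% of all genes. For Treml1 the lead of ST-HSC over LT-HSC was small, 0.20 (limma adjusted p = 0.80), and 0.006 without ST-HSC replicate 3. MPP kept 3, Tbxa2r, Plek and Nbeal2, beside 13.2% of all genes. Cavin2 was among those that changed, being highest in LT-HSC when LT-HSC replicate 1 was left out and in ST-HSC with the deposited values.

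ST-HSC replicate 1 was the highest array for 12 of 32 members, a larger share than among all genes (2281 of 17576). LT-HSC replicate 1 was the lowest array for 7 of 32, beside 32.5% of all genes. Averaged over the members and set against each gene's mean over all arrays, the signal was -0.24 and 0.14 in LT-HSC, 0.49, 0.15 and 0.30 in ST-HSC and -0.29, -0.42 and -0.13 in MPP. Thus all ST-HSC arrays were above all others, although LT-HSC replicate 3 and ST-HSC replicate 2 nearly met.

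Markers of other marrow cells moved with ST-HSC replicate 1. On the same scale the erythroid genes, 9 of 12 tested, were 0.94 there, beside -0.21 and 0.06 in the other ST-HSC arrays and -0.65 to 0.41 in LT-HSC and MPP. The stroma and endothelium genes, 12 of 15 tested, were 1.01 there, and between -0.36 and 0.21 on the other 7 arrays. Not every gene of that list rose there. Col1a1 and Cxcl12 had their highest value in ST-HSC replicate 1, at 8.94 and 8.14. Emcn and Pdgfrb had their lowest value there, at 7.52 and 5.63. The granulocyte and monocyte genes, 18 of 18 tested, were 0.82 there, and were also raised in replicate 1 of LT-HSC (0.53) and of MPP (0.56). The 5 B cell genes tested lay between -0.29 and 0.31 over the 8 arrays and the 6 T and NK cell genes between -0.22 and 0.18. By limma 0 genes of these lists or of the ubiquitous controls were called in any comparison, with 0 to 4 per list and comparison at an unadjusted p under 0.05. Among defining markers, the collagen gene Col1a2 read 10.85 in ST-HSC replicate 1, 8.75 in MPP replicate 1, 7.64 in LT-HSC replicate 1 and 4.54 to 5.28 on the other 5 arrays, while the endothelial cadherin Cdh5 read 4.03 to 4.82 on all arrays. No marker was at 0 on this scale, and their part in the member values of that array was not tested. Without that array ST-HSC minus LT-HSC came to -0.48 for Clec1b, -0.25 for Tubb1 and -0.20 for P2ry12. It came to -0.11 for Ppbp, -0.10 for Itgb3 and -0.06 for Thbs1. Each of these differences was positive with the array. Mmrn1, Pdgfb and Angpt1 turned from negative to positive, at 0.03, 0.02 and 0.10. Without ST-HSC replicate 1, Gp5 and Itga2b were called in both comparisons with ST-HSC, Vwf in MPP minus LT-HSC and Cavin2 in MPP minus ST-HSC. In sorted populations, fewer cells of a kind and less RNA per cell cannot be told apart.

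**Figure D4:**
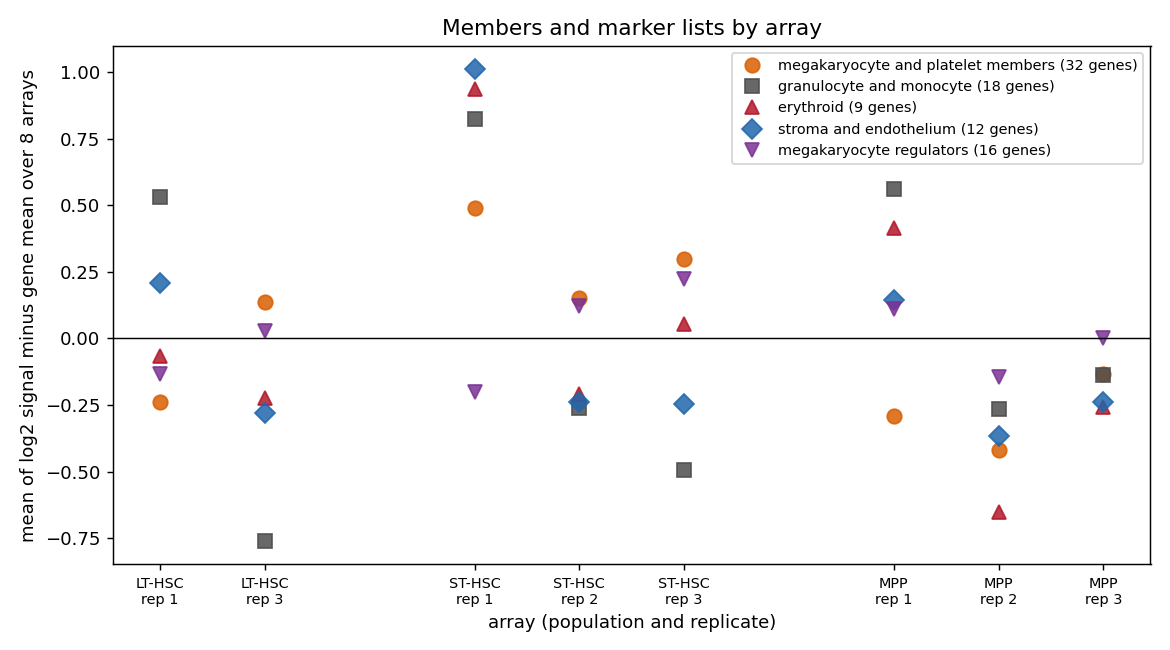
Mean over the genes of a list of the log2 signal minus each gene's mean over the 8 arrays (vertical axis), for each array by population and replicate (horizontal axis). The members (circles) reach 0.49, 0.15 and 0.30 in ST-HSC and lie below 0 in the 3 MPP arrays, the megakaryocyte regulators stay between -0.20 and 0.22, and the markers of other cells are highest in ST-HSC replicate 1.

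The transcription factors and partners that direct megakaryocyte development formed a list of 17 genes, of which 16 were tested. By limma 0 of 16 were called in any comparison. At an unadjusted p under 0.05, 2 were higher in ST-HSC than in LT-HSC, 1 was higher in MPP than in LT-HSC and 3 were lower in MPP than in ST-HSC. The list medians were 0.01, 0.02 and 0.09 in these comparisons. Named for the highest probe set signals, which do not rank expression, the ETS factor Etv6 differed by -0.06, 0.29 and 0.35, the homeobox factor Meis1 by -0.22, -0.03 and 0.19, the ETS factor Fli1 by -0.09, -0.09 and 0.00, and the GATA partner Ldb1 by -0.25, 0.07 and 0.32. Named after their values were seen, the 3 lower ones in MPP minus ST-HSC were Gfi1b (-0.93, limma adjusted p = 0.221), Gata1 (-0.90, limma adjusted p = 0.447) and the GATA1 cofactor Zfpm1 (-0.61, limma adjusted p = 0.248).

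A further 36 platelet genes outside the members, of which 33 were tested, gave the same count. By limma 0 of 33 were called, and their medians over the comparisons ST-HSC with LT-HSC, MPP with LT-HSC and MPP with ST-HSC were 0.24, 0.11 and -0.13. At an unadjusted p under 0.05, 3, 3 and 0 were higher and 0, 2 and 6 were lower. Without the share of all genes at that threshold, these counts show no excess. Named by the same rule, the granule fusion protein Vamp8 differed by 0.27, 0.14 and -0.13, the adaptor Lcp2, also known as SLP-76, by -0.16, 0.07 and 0.23, the G protein regulator Rgs18 by 0.28, -0.11 and -0.39, and the integrin beta1 chain gene Itgb1 by 0.26, 0.11 and -0.15.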

How the data were processed

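RNA of 8 sorted samples was hybridised to microarrays, and the authors deposited 1 value per probe set and array. Per the submitters' processing notes these are RMA values, and their log2 scale was read from the deposited range of 2.05 to 12.9. The RMA software and its version are not given in the sources used here.

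Of 33649 probe sets, 23521 had 1 gene symbol in the platform annotation, 1814 had several and 8314 were unnamed. The 22180 named genes were each represented by the probe set with the highest mean, and 17576 with a mean at or above 3.88, the 25th percentile over all probe sets, were tested. The test was limma 3.58.1 in R 4.3.3, with lmFit, eBayes and 1 mean per population over all 8 arrays. It had 5 residual and 5.93 prior degrees of freedom. p-values were two-sided and Benjamini-Hochberg adjusted over the 17576 genes. The scripts were tested on simulated data.

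The members and lists were chosen with earlier results of these data known. Values are given by array for called members and for the 14 with the largest range between population means, and for some others. List genes are named where called, by the highest probe set signal (up to 4 per list) or as stated, some of them after their values were seen. The lists were megakaryocyte regulators, other platelet genes, granulocyte and monocyte, erythroid, stroma and endothelium, B cell, T and NK cell, sort markers and ubiquitous controls.

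The labels state no pairing. Deviations of ST-HSC and MPP arrays of the same number from their group means correlated at 0.15, 0.23 and 0.21. Those of different numbers correlated at -0.28 to 0.07. With so few arrays this does not establish a pairing. The pairing of the LT-HSC arrays was not checked. A fit with the replicate block was run as an alternative, and calls given without mention of the block come from fits without it. Alternatives were other filters, quantile normalization, median centring, the mean of a gene's probe sets, each array left out, both arrays that stood apart left out, array weights, an intensity trend and fits of 2 populations. The number of arrays limits the precision.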

Additional observations from a re-analysis of the deposited data

How the results depend on the processing

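Leaving out 1 array at a time gave 0 to 6 members called in ST-HSC minus LT-HSC, 0 to 4 in MPP minus LT-HSC, 0 to 4 in MPP minus ST-HSC and 2 to 7 by the F test. Their medians ranged from 0.10 to 0.45, from -0.31 to -0.10 and from -0.60 to -0.36. The members highest in LT-HSC numbered 4 to 9, in ST-HSC 18 to 23 and in MPP 3 to 8. With the replicate block 4, 4 and 11 members were called, where 2.69%, 0.893% and 1.52% of all genes were. The F test then called 12 members. With array weights these member counts were 0, 0, 11 and 9. In MPP minus ST-HSC 2.99% of all genes were then called, against 0.193% without weights. For the F test the share of all genes is given only for the main fit, at 0.905%. The F counts under the alternatives therefore show no excess of members. With median centring 0 were called in MPP minus LT-HSC and 0 in MPP minus ST-HSC, and 3 were highest in LT-HSC. That centring moved the median of all genes to 0.13 in ST-HSC minus LT-HSC, against 0.02 as deposited, and to 0.18 in MPP minus LT-HSC, against 0.06. Without both LT-HSC replicate 1 and ST-HSC replicate 1, 0 members were called in ST-HSC minus LT-HSC, at a median of 0.11, and 2 in MPP minus LT-HSC, while 12 were highest in LT-HSC, 13 in ST-HSC and 7 in MPP. Fitting the 2 populations alone, 1 member was called in ST-HSC minus LT-HSC, and with an intensity trend 2 in MPP minus LT-HSC. The cause was not tested. Of 1713 single-member values under the alternatives, 40 lost a call, 30 gained one and 0 called ones turned sign, while 87 uncalled ones differed in sign.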
